A study of Homo sapiens with 6 samples.

Results

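Accessible chromatin was described around the starts of 8 genes that decide how a cell receives glucocorticoids: the receptor genes NR3C1 and NR3C2, the cortisol-converting enzyme genes HSD11B1 and HSD11B2, and the chaperone genes HSP90AA1, HSP90AB1, PTGES3 and FKBP4. DNase-seq sequences the ends that the nuclease DNase I releases from open chromatin, and each library was deposited as a list of called peaks in hg19 coordinates. All libraries came from A549, a human lung adenocarcinoma cell line, grown to near confluence. Cells received 100 nM dexamethasone, a synthetic glucocorticoid, for 1 h (3 libraries) or 0.02% ethanol, its vehicle, for 1 h (3 libraries). The labels name no genetic change and do not say whether the libraries of a treatment came from separate cultures, so their spread may be technical. Members were the peaks with any base within 100 kb of a gene start, joined across libraries where they shared at least 1 bp. This gave 103 regions out of 81216 in the genome. NR3C1 had 12 of them, NR3C2 1, HSD11B1 13, HSD11B2 21, HSP90AA1 9, HSP90AB1 19, PTGES3 14 and FKBP4 14. A region within a window is named after that gene by distance alone, since the windows also hold other genes and no hg19 annotation was used.

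The glucocorticoid receptor, encoded by NR3C1, waits in the cytoplasm in a complex with the chaperone HSP90 and moves to the nucleus once a hormone is bound. HSP90AA1 and HSP90AB1 encode the stress-inducible and the constitutive cytosolic form of HSP90. PTGES3 encodes p23, a co-chaperone that stabilises the HSP90 and receptor complex, and FKBP4 encodes FKBP52, an immunophilin that binds HSP90 and favours transport of the receptor. NR3C2 encodes the mineralocorticoid receptor, which also binds cortisol. HSD11B1 encodes the enzyme that regenerates cortisol from cortisone, and HSD11B2 encodes the enzyme that inactivates cortisol. Dexamethasone is also known to lower NR3C1 expression in many cell types.

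Promoter stretches are printed to show how the genes differ in base composition and in heat shock and glucocorticoid response element letters, and they were not placed on the peaks. RefSeq promoter sequences on the build GRCh38.p14, which is not the build of the peaks, were matched by symbol for 6 of the 8 genes. FKBP4 and HSD11B2 were not among them. Each line gives the 250 bases before a listed start, 5′ to 3′ along the gene, with capitals marking the searched motifs. Each motif was sought on both strands. GAANNTTC is a pair of facing heat shock element units, and GGGCGG is the GC box. CCAAT is the CCAAT box and TATAAA a form of the TATA box. AGAACA is a unit of the glucocorticoid response element.
NR3C1, chr5:143403687-143403936 on the minus strand: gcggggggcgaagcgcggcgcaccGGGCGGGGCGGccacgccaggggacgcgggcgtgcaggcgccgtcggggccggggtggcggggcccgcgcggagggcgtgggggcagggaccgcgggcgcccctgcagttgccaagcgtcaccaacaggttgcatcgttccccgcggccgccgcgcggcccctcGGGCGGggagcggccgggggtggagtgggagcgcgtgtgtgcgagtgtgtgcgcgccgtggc
NR3C2, chr4:148445323-148445572 on the minus strand: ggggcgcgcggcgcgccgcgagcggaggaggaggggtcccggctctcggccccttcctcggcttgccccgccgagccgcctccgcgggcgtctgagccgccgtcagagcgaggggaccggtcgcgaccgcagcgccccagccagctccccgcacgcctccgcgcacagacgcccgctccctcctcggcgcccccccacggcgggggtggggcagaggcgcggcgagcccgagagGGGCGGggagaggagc
HSD11B1, chr1:209685929-209686178 on the plus strand: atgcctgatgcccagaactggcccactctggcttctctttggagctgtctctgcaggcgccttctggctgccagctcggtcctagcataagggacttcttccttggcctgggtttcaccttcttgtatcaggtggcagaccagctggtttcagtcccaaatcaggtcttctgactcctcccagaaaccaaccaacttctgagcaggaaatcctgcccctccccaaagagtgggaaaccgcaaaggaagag
HSP90AA1, chr14:102087045-102087294 on the minus strand: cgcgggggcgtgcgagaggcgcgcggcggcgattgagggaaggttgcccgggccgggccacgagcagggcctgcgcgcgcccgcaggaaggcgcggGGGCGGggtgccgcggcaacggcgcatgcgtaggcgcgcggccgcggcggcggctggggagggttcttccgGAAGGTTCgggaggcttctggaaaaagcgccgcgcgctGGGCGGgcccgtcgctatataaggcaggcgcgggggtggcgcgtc
HSP90AB1, chr6:44247693-44247942 on the plus strand: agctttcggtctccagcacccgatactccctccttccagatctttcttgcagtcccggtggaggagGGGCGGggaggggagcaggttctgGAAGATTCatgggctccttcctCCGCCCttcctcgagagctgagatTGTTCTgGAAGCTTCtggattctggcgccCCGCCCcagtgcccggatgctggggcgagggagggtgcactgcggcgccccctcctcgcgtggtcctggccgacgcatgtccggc
PTGES3, chr12:56688285-56688534 on the minus strand: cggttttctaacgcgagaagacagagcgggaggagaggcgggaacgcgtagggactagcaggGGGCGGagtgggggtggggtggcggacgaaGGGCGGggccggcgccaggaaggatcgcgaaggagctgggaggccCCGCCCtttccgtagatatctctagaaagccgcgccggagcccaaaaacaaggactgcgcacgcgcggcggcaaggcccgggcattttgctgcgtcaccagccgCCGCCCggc
For genes with several listed starts the printed one was chosen after the search: the most GC-rich for NR3C1 and NR3C2, and the one holding GAANNTTC for HSP90AA1 and HSP90AB1. Which listed start corresponds to the hg19 start of the rule was not determined.

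GAANNTTC lay upstream of 1 of the 2 listed starts of HSP90AA1, with 1 copy, and of 1 of the 3 listed starts of HSP90AB1, with 2 copies. Counted by single listed promoter, 5.78% of all 35116 held it. The unit AGAACA was found in HSP90AB1 alone among the 6 genes, beside the second GAANNTTC with 1 base between them, and occurred in 12.4% of all promoters. Facing AGAACA units across 3 bases, the palindromic glucocorticoid response element in its strict form, occurred in 0 promoters of the 6 genes and in 1 promoter of the table. GGGCGG occurred 4 times in PTGES3 and in 42.6% of all promoters. The HSD11B1 stretch held none of the searched motifs and had a GC content of 55.2%, against 68.8% in PTGES3. The listed starts ranged from 32.8% to 82.0% for NR3C1, from 63.6% to 81.6% for NR3C2, from 64.8% to 77.6% for HSP90AA1 and from 56.4% to 65.6% for HSP90AB1. These matches are descriptions of letters in short windows. CCAAT occurred in 32.0% and TATAAA in 10.7% of all promoters. Neither was in a printed stretch, but CCAAT was found at other listed starts of NR3C1, NR3C2 and HSP90AA1, and TATAAA at another of NR3C1. The listed starts of NR3C1 numbered 7 and spread over 32.2 kb, and the 2 of HSP90AA1 lay 52.7 kb apart.

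For 7 of the 8 genes a merged region covered the start and was called in all 6 libraries, and HSD11B1 was the exception. Whether the peak of each single library also spanned the start was not examined. The strength of a peak is given here as its percentile by −log10 q among the peaks of the same library, where 100 is the strongest, and as the fold enrichment over background that the authors deposited for that peak. Both belong to a single list and are set side by side only as descriptions. By the mean percentile the order was HSP90AA1, PTGES3, NR3C2, FKBP4, HSP90AB1, HSD11B2 and NR3C1.

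**Figure D1:**
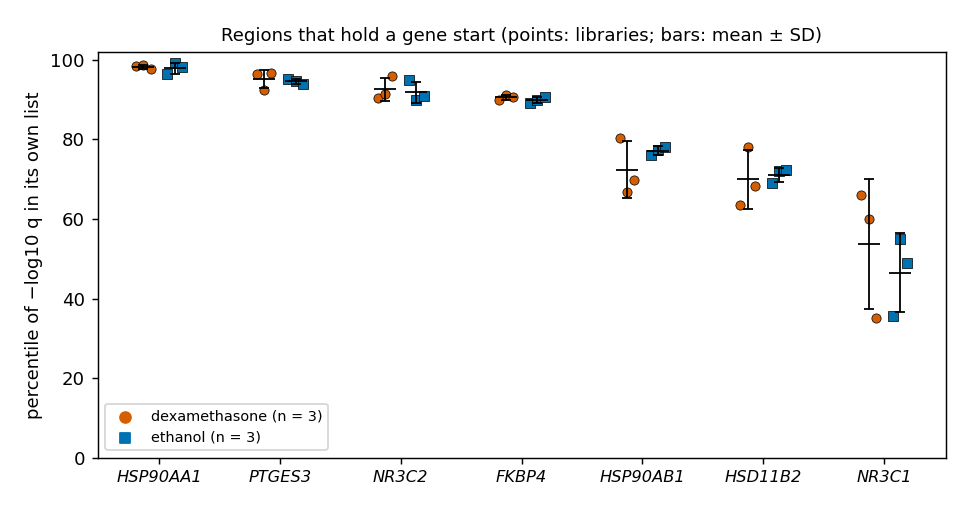
Percentile by −log10 q among the peaks of the same library (y axis, 0 to 100) of the region holding each gene start (x axis), for dexamethasone libraries (circles) and ethanol libraries (squares), with mean and SD for each treatment (n = 3). HSP90AA1 lies highest at a mean of 98.1 and NR3C1 lowest at 50.1, and both treatments cover a common range at each of the 7 genes.

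The HSP90AA1 start region (chromosome 14, 102553174 to 102554144) stood at percentiles 98.5, 98.7 and 97.7 in dexamethasone replicates 1 to 3 and at 96.4, 99.1 and 98.2 in ethanol replicates 1 to 3. It was therefore among the strongest peaks of every list, and the treatments overlapped. Its deposited fold was 13.9 ± 0.73 (SD, n = 6), and its summits lay 155 to 167 bp upstream of the start given by the rule. PTGES3 (chromosome 12, 57081604 to 57082477) had percentiles of 96.4, 92.5 and 96.7 with dexamethasone and of 95.3, 94.7 and 93.9 with ethanol, with a fold of 12.9 ± 0.55 (SD, n = 6). FKBP4 (chromosome 12, 2903739 to 2904346) had 90.0, 91.1 and 90.7 with dexamethasone and 89.1, 89.9 and 90.8 with ethanol, the narrowest spread of the 7 start regions (SD 0.73, n = 6). A further region lay just beyond it, at 2904438 to 2905270, and was also called in all 6 libraries. The 2 regions of FKBP4 became 1 once gaps of up to 100 bp were bridged, and so did those at HSP90AB1.

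HSP90AB1, the constitutively expressed HSP90 gene, had a weaker start peak than its inducible paralog. Its start region (chromosome 6, 44214534 to 44214945) stood at percentiles 80.5, 66.9 and 69.9 with dexamethasone and 76.1, 77.4 and 78.2 with ethanol. In each of the 6 libraries it ranked below the HSP90AA1 region. A second region of like strength, at 44213753 to 44214435, lay just upstream with a mean percentile of 74.8, the same to that precision as the start region, so that 2 peaks shared the promoter area. Their folds were 8.71 ± 0.65 and 8.67 ± 0.69 (SD, n = 6 each).

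The receptor genes differed widely in the strength of their start peaks. NR3C2 had 1 region in its whole window of 200 kb, the one over its start (chromosome 4, 149363431 to 149364038), and no other peak in any library. That peak was strong, at percentiles 90.5, 91.5 and 95.9 with dexamethasone and 94.9, 89.9 and 90.9 with ethanol and a fold of 15.8 ± 0.94 (SD, n = 6). The NR3C1 start region (chromosome 5, 142783174 to 142784501) was the widest of the 7 at 1328 bp and the weakest. Its percentiles were 66.0, 60.1 and 35.1 with dexamethasone and 35.6, 55.01 and 49.0 with ethanol, and its fold was 5.40 ± 0.72 (SD, n = 6). Dexamethasone replicates 1 and 2 were the highest and dexamethasone replicate 3 the lowest, so the treatments overlapped. Dexamethasone replicates 1 and 3 and ethanol replicates 1 and 3 each called 2 peaks within it, and the other libraries 1. The strongest summit lay 117 to 139 bp upstream of the start in 5 libraries and 853 bp upstream in ethanol replicate 2.

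For the converting enzymes, HSD11B2 had a broad start region (chromosome 16, 67464418 to 67465538, 1121 bp) at percentiles 63.6, 78.2 and 68.3 with dexamethasone and 69.2, 72.01 and 72.3 with ethanol. HSD11B1 had no peak over its start in any library. The nearest region (chromosome 1, 209862083 to 209862416) lay 2.72 kb downstream and was called in dexamethasone replicates 2 and 3 and ethanol replicate 3, at folds of 4.43, 5.47 and 4.64. Where no peak is listed, accessibility may lie below the threshold of the caller, and read depth is unknown.

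The order of neighbouring genes was repeated within libraries but not always beyond the spread over libraries. HSP90AA1 ranked above PTGES3, PTGES3 above NR3C2, and NR3C2 above FKBP4 in 6 of 6 libraries each, although the ranges of each of these pairs over the libraries overlapped. FKBP4 stood apart from HSP90AB1, with a lowest value of 89.1 against a highest of 80.5. HSP90AB1 exceeded HSD11B2 in 5 of 6 libraries, and HSD11B2 exceeded NR3C1 in 5 of 6, with overlapping ranges in both cases.

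The number of peaks around the 8 genes did not differ between treatments beyond the spread of libraries. Dexamethasone replicates 1 to 3 had 80, 79 and 81 peaks in the 8 windows and ethanol replicates 1 to 3 had 76, 87 and 85. The dexamethasone values lay within the ethanol range. The means were 80.0 ± 1.0 and 82.7 ± 5.9 (SD, n = 3 each; exact two-sided permutation p = 0.5, smallest possible 0.1). The lists held 58281 to 61344 peaks in all, and per 10000 peaks of the list the windows held 13.5 ± 0.42 with dexamethasone against 13.8 ± 0.68 (SD, n = 3 each; p = 0.5 by the same exact permutation test). Bases covered came to 32.8 ± 1.7 kb and 34.2 ± 1.6 kb (SD, n = 3 each; p = 0.4 by that exact test). Without ethanol replicate 2 the difference in peaks shrank from −2.67 to −0.50, and without ethanol replicate 1 it grew to −6.00. Within 50 kb of the starts it turned to a difference of 1.33, with more peaks with dexamethasone.

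**Figure D2:**
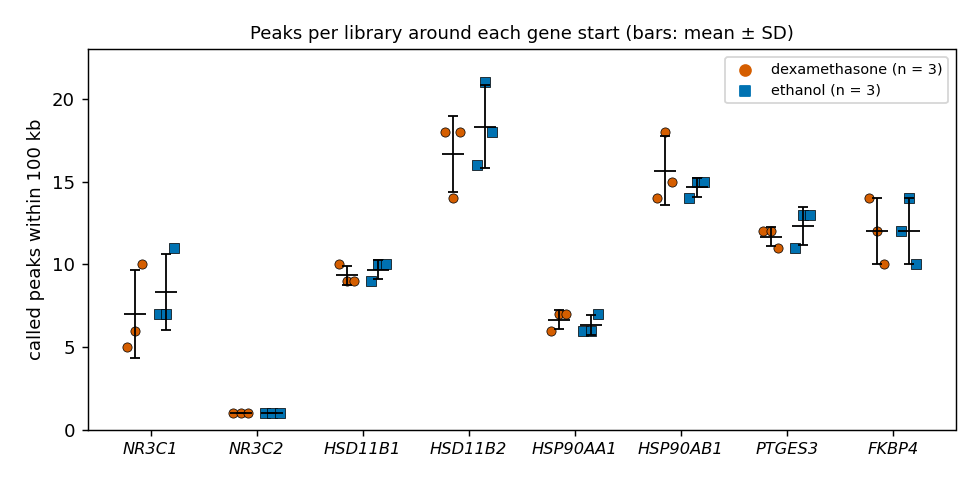
Called peaks within 100 kb of each gene start (y axis) for the 8 genes (x axis), with dexamethasone libraries as circles, ethanol libraries as squares, and mean with SD for each treatment (n = 3). HSD11B2 has 14 to 21 peaks and NR3C2 has 1 in every library, and the treatments overlap at all 8 genes.

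Gene by gene, HSD11B2 had the most peaks, 16.7 ± 2.3 with dexamethasone and 18.3 ± 2.5 with ethanol (SD, n = 3 each). NR3C1 had 5, 6 and 10 with dexamethasone and 7, 7 and 11 with ethanol, replicate 3 being the highest of each treatment. Dexamethasone was the lower in all 3 numbered pairs, by a mean of 1.33 peaks (exact sign-flip permutation p = 0.25 with the replicate block, n = 3 pairs, the smallest possible). The bases covered at NR3C1 were also lower in each pair, at 2.17, 2.52 and 2.96 kb against 2.67, 3.07 and 3.59 kb. This was not particular to NR3C1, since FKBP4 had 5.6, 5.6 and 4.5 kb against 6.2, 6.1 and 5.1 kb. For bases covered, the exact permutation test without the block gave p = 0.2 at NR3C1 and 0.4 at FKBP4. Both were 0.8 after Benjamini-Hochberg adjustment over the 8 genes. Leaving out ethanol replicate 3 brought the difference in NR3C1 peaks to 0, and leaving out dexamethasone replicate 3 brought it to −2.83. HSP90AB1 had 14, 18 and 15 against 14, 15 and 15, HSP90AA1 6, 7 and 7 against 6, 6 and 7, PTGES3 12, 12 and 11 against 11, 13 and 13, and HSD11B1 10, 9 and 9 against 9, 10 and 10. FKBP4 had 14, 12 and 10 against 12, 14 and 10, with equal means of 12. For the number of peaks, none of the 8 exact permutation tests without the block gave a p below 0.5, and all adjusted p-values were 1 (Benjamini-Hochberg over 8 genes, n = 3 each).

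Most of the regions were constitutive. Of the 103, 60 (58.3%) were called in all 6 libraries, against 49.2% of all regions in the genome. A single library called 17 (16.5%), against 18.9% in the genome, and 26 were called in 2 to 5. The mean percentile of a region was taken over the libraries that called it. Its median over regions was 46.9, against 33.5 for all regions. It was at least 75 in 27 regions (26.2%), against 17.4% of all regions. All 49 regions with a mean percentile of at least 50 were called in all 6 libraries. The matching share for the genome is not given here, so this count does not set the members apart. The strongest region missing from any library had a mean percentile of 46.0. It lay 2.83 kb from the HSD11B2 start, and dexamethasone replicate 2 did not call it. Among the chaperone genes, calls in all 6 libraries were found for 10 of 14 regions at PTGES3, 6 of 9 at HSP90AA1, 9 of 14 at FKBP4 and 12 of 19 at HSP90AB1. The same was found for 12 of 21 at HSD11B2, 7 of 13 at HSD11B1, 3 of 12 at NR3C1 and the single region of NR3C2. These shares are descriptions, since regions are not replicates and windows differ in their neighbouring genes.

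**Figure D3:**
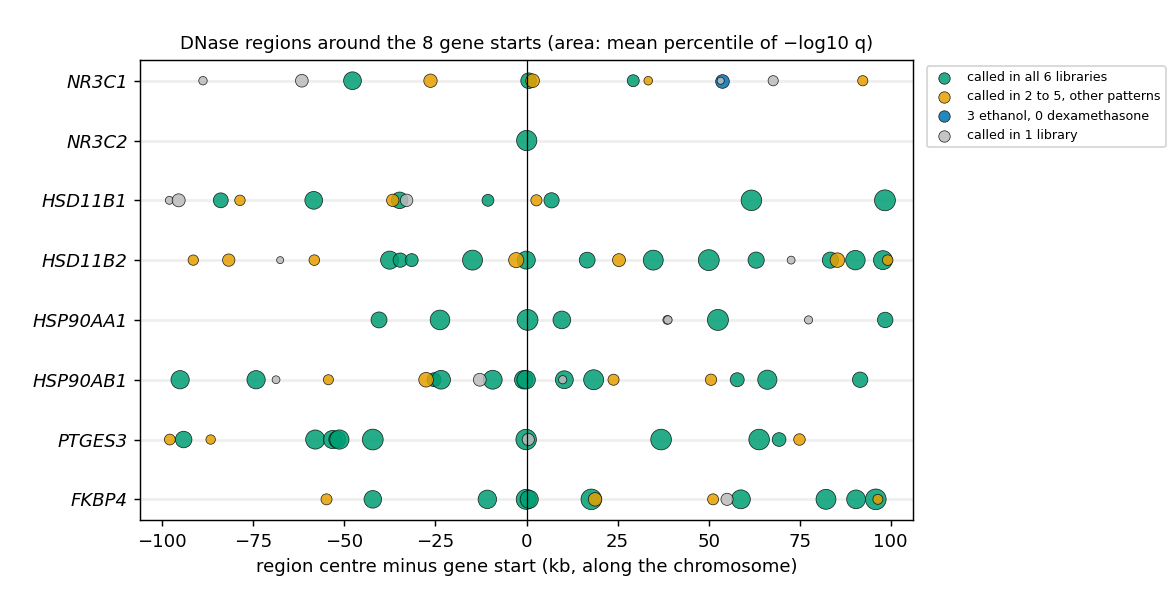
Distance of each of the 103 regions from its gene start in kb along the chromosome (x axis) by gene (y axis), with colour for the pattern of libraries that called it (green all 6, orange 2 to 5, blue 3 ethanol and 0 dexamethasone, grey 1) and marker area for the mean percentile of −log10 q. The NR3C2 window holds 1 region, the HSD11B1 start is empty, and the blue marker in the NR3C1 row is the region called in 3 ethanol libraries alone.

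Calls varied with distance from the start, without a steady trend. Of the 10 regions within 1 kb of a start, 9 were called in all 6 libraries, with a median percentile of 74.8. From 1 to 10 kb this held for 3 of 7, from 10 to 50 kb for 22 of 33 and from 50 to 100 kb for 26 of 53, where the median percentile was 35.8. The strongest regions were often distant from the start given by the rule. The strongest region of the whole set lay 52.6 kb upstream of the HSP90AA1 start (chromosome 14, 102605465 to 102606390). It had percentiles of 99.7 to 100.0 in the 6 libraries and a fold of 17.9 ± 0.60 (SD, n = 6). HSP90AA1 has 2 listed starts, 52.7 kb apart on GRCh38.p14. Whether this region lies at the other listed start was not tested, so it may be a promoter region of HSP90AA1 itself. The strongest in the HSD11B1 window lay 98.4 kb downstream of that start, close to the edge (chromosome 1, 209957605 to 209958267, fold 18.9 ± 0.98, SD, n = 6). In the HSD11B2 window it lay 50.05 kb away on the side of higher coordinates (67514725 to 67515445, fold 15.9 ± 0.45, SD, n = 6), and for FKBP4 95.9 kb away on that side (2999678 to 3000334, fold 15.8 ± 1.3, SD, n = 6). PTGES3 had its strongest region 42.2 kb downstream (57039625 to 57040262, fold 17.3 ± 1.2, SD, n = 6) and HSP90AB1 18.4 kb downstream (44232991 to 44233568, fold 12.7 ± 0.80, SD, n = 6). NR3C1 had no region with a mean percentile of at least 75, and its strongest, 47.8 kb downstream of the start (142735328 to 142735642), reached a mean percentile of 68.2 and a fold of 11.1 ± 0.82 (SD, n = 6).

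Other genes stand next to the members. By gene order in the RefSeq table on GRCh38.p14, whose coordinates were not used with the peaks, TRAF3IP3 and C1orf74 follow HSD11B1 on the side of its strongest region and G0S2 and LAMB3 precede it. WDR20 and MOK follow HSP90AA1, ITFG2 and NRIP2 follow FKBP4, SLC35B2 and NFKBIE follow HSP90AB1, and ATP6V0D1 and AGRP follow HSD11B2. ATP5F1B and BAZ2A lie beside PTGES3 on the side of its strongest region. NFKBIE encodes an inhibitor of NF-κB.

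The comparison of treatments asked which sites near these genes were called after dexamethasone and not after vehicle. None of the 103 regions was called in all 3 dexamethasone libraries and in 0 ethanol libraries. In the genome 1.10% of regions had that pattern. A count of 0 among 103 allows a share of up to 2.91% by counting error alone, so the background share was not distinguishable at this number. The reverse pattern, 3 of 3 ethanol and 0 of 3 dexamethasone libraries, was found at 1 region (0.971%), against 0.662% in the genome. A single region cannot reach a p below 0.1 with 3 libraries against 3. More ethanol than dexamethasone libraries called 19 regions (18.4%), against 22.5% in the genome, and more dexamethasone than ethanol libraries called 14 (13.6%), against 19.7%. By equally numbered pairs of libraries, with at least 2 of 3 pairs called in 1 treatment alone and none the other way, the replicate block gave 5 ethanol regions, of which 4 also had a peak in 1 dexamethasone library (4.85% of members, 4.80% in the genome) and 1 dexamethasone region (0.971% and 4.47%).

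The region called in ethanol libraries alone lay 53.7 kb upstream of the NR3C1 start (chromosome 5, 142836800 to 142837120). Its folds in ethanol replicates 1 to 3 were 5.71, 7.47 and 8.29, with percentiles of 19.0, 38.3 and 48.7, and no dexamethasone library had a peak in it. All 3 ethanol summits lay within 27 bp of each other. Dexamethasone replicate 3 had a separate weak peak only 0.137 kb away (142836464 to 142836663) at a fold of 3.87 and a percentile of 0.59, near the caller's threshold. The region kept its pattern when gaps of 100 bp were merged, with lists of one length and at a −log10 q of at least 5. None of these settings could add a dexamethasone call, so they say little about the pattern. The nearest dexamethasone peak lay beyond 100 bp, and the other settings only remove peaks. The ethanol peaks had a −log10 q of 9.39, 14.8 and 18.8, above that limit. It lies outside a 50 kb window, where the count was 0.

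**Figure D4:**
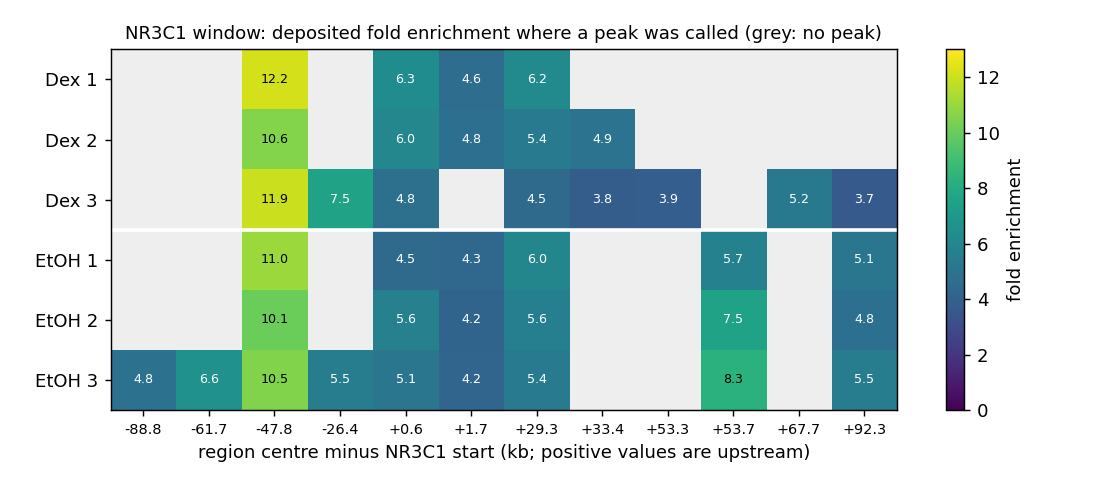
Deposited fold enrichment (colour and printed value) of the 12 regions of the NR3C1 window (x axis, distance of the centre from the start in kb, positive values upstream) in each of the 6 libraries (rows), with grey where no peak was called. The column at +53.7 is filled in the 3 ethanol libraries alone, and 3 columns are filled in all 6 libraries.

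The NR3C1 window held 3 of the 6 regions whose number of calling libraries differed by at least 2 between treatments. The second, 92.3 kb upstream of the start (142875399 to 142875742), was called in 3 ethanol libraries at folds of 5.10, 4.76 and 5.51 and in dexamethasone replicate 3 at 3.70. The third, 33.4 kb upstream (142816546 to 142816806), went the other way, with peaks in dexamethasone replicates 2 and 3 at folds of 4.93 and 3.82 and none with ethanol. All 3 were weak, with mean percentiles of 35.3, 14.1 and 6.44. Elsewhere, HSD11B1 had a region 78.7 kb upstream (209780660 to 209781046) with folds of 3.97, 4.86 and 5.85 in the ethanol libraries and 3.40 in dexamethasone replicate 1. HSD11B2 had one 85.4 kb from its start (67550237 to 67550550) with 6.02, 5.74 and 6.02 in the ethanol libraries and 4.56 in dexamethasone replicate 3. PTGES3 had one 86.7 kb downstream (56995276 to 56995577) with folds of 4.68, 3.45 and 3.52 in the ethanol libraries and 4.83 in dexamethasone replicate 2, the highest of the 4. That region was called in 1 library of each treatment at a −log10 q of at least 5 or with lists of one length. At least 2 more ethanol than dexamethasone libraries thus called 5 regions (4.85%, against 4.80% in the genome), and the reverse held for 1 (0.971%, against 4.47%). NR3C1, HSD11B1, HSD11B2 and PTGES3 held these regions, and the windows of HSP90AA1, HSP90AB1, FKBP4 and NR3C2 held none of them. At HSP90AA1 this depended on the merging rule. Adjoining regions there were called in dexamethasone replicate 3 alone (102591885 to 102592108) and in dexamethasone replicate 2 alone (102592110 to 102592309). With gaps of 100 bp merged they form 1 region called in those 2 dexamethasone libraries and in no ethanol library.

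At a −log10 q of at least 5, the count of regions called in 3 ethanol and 0 dexamethasone libraries rose from 1 to 3. The regions added were the one 92.3 kb upstream of NR3C1 and the one 78.7 kb upstream of HSD11B1, whose single dexamethasone peaks fell below that limit. Without dexamethasone replicate 1, 2 or 3 the count was 2, 2 and 3, since only 2 absences were then asked for. Without dexamethasone replicate 1 the region 33.4 kb upstream of NR3C1 became 1 region called in dexamethasone libraries alone.

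The 60 regions called in all 6 libraries were compared by rank. Each library ranked the same 39934 regions of the genome by −log10 q, and the rank is given as a percentile among them. In 3 of the 60 (5%) every dexamethasone library ranked the region above every ethanol library, against 5.79% of all 39934, and in 4 (6.67%) below, against 5.62%. For such a region the exact permutation p is 0.1, the smallest possible. The members' shares were near those of the genome in both directions. By numbered pairs (replicate block), 11 regions (18.3%, against 14.2% in the genome) ranked higher and 8 (13.3%, against 14.6%) ranked lower in the dexamethasone library of all 3 pairs. The counts rose when a library was left out, since fewer libraries then had to be separated: 7, 8 and 9 ranked higher without dexamethasone replicate 1, 2 or 3, and 12, 4 and 7 without ethanol replicate 1, 2 or 3. Without dexamethasone replicate 1 or 2, 8 ranked lower.

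Among the 7 regions whose ranks did not overlap, the largest difference was at a region 37.6 kb from the HSD11B2 start on the side of lower coordinates (67427252 to 67427682). It ranked at 60.9, 59.7 and 23.01 with dexamethasone and at 76.1, 66.9 and 66.3 with ethanol, a mean difference of −21.9, and dexamethasone replicate 3 was far below the others. A region 34.8 kb upstream of HSD11B1 (209824458 to 209824920) ranked at 30.6, 34.3 and 29.7 with dexamethasone and 39.8, 53.9 and 46.5 with ethanol, a difference of −15.2. Here no single library set the lower values. A region 23.8 kb downstream of HSP90AA1 (102529416 to 102529824) ranked at 68.3, 79.1 and 76.2 against 81.4, 86.5 and 82.5, a difference of −8.93. These 3 also did not overlap when ranked by the deposited fold. The fourth lower region, 90.3 kb from the HSD11B2 start (67554936 to 67555737), differed by −4.79 and overlapped by fold.

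The 3 regions that ranked higher without overlap differed by 2.47 to 9.69. The region 74.2 kb upstream of HSP90AB1 (44140401 to 44140817) ranked at 63.9, 63.8 and 67.2 with dexamethasone and 45.8, 59.3 and 60.7 with ethanol, a difference of 9.69 in which ethanol replicate 1 was lowest. The region 17.8 kb from the FKBP4 start (2921542 to 2922244) differed by 2.69 and that 63.9 kb upstream of PTGES3 (57145602 to 57146410) by 2.47. All 3 overlapped between treatments when ranked by the deposited fold. The largest difference in mean rank over all 60 regions was at one whose values overlapped, 98.5 kb upstream of HSP90AA1 (102651658 to 102652043), named after its values were seen. It ranked at 58.8, 48.2 and 27.3 with dexamethasone and 45.2, 10.4 and 2.24 with ethanol, a difference of 25.5. Dexamethasone was the higher in all 3 numbered pairs, and ethanol replicate 1 exceeded dexamethasone replicate 3. None of the 7 start regions was among the 7 regions without overlap. The NR3C1 start region ranked at 51.1, 40.5 and 15.6 with dexamethasone and 15.1, 33.6 and 25.8 with ethanol, a difference of 10.9 with overlapping values. HSP90AB1 ranked at 71.6, 50.3 and 56.4 against 65.3, 65.9 and 66.7.

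**Figure D5:**
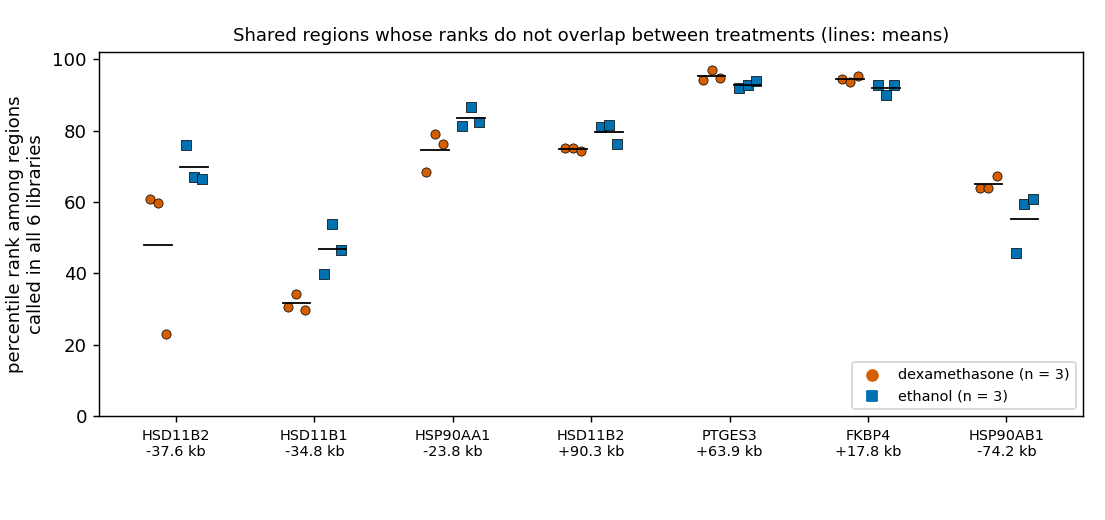
Percentile rank among the regions called in all 6 libraries (y axis) of the 7 member regions whose ranks do not overlap between treatments (x axis, gene and distance of the centre from its start), with dexamethasone libraries as circles, ethanol libraries as squares and lines at the means (n = 3 each). The 4 regions at the left rank lower with dexamethasone, by 21.9 to 4.79 points in the mean, and the 3 at the right higher, by 2.47 to 9.69 points.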

How the data were processed

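DNase-seq peaks of 6 A549 libraries were used. Per the submitters' processing notes, CASAVA 1.3, Bowtie, bedtools and MACS2 2.1.0 were run on hg19, with no settings given. The deposited ratio is the fold enrichment of a peak, the deposited p-value and q-value are given as −log10, and the deposited score was not used. Each library has its own list, whose lowest −log10 q was 2.51 to 2.71. The files give no read counts, so no interval based on reads can be given.

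Peaks genome-wide were merged where they shared at least 1 bp, and a region with several peaks of a library took the one with the highest −log10 q. Counts per library were compared by exact permutation over the 20 splits. Equally numbered libraries deviated together over regions called in all 6 (correlations of 0.208, 0.124 and 0.147), so numbers were taken to pair libraries, and a replicate block was run as an alternative to the main comparison without it. Regions named were those holding or nearest a start, the strongest of each window, those whose calls differed by at least 2, and up to 4 per direction whose ranks did not overlap. Members and lists were chosen with earlier results of these data known. Other pathway genes had been listed but need hg19 gene starts, which were not used here. The steps were tested on simulated data in Python 3.11.15 with pandas 2.3.3, NumPy 2.4.6 and SciPy 1.17.1.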

Additional observations from a re-analysis of the deposited data

How the results depend on the processing

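The alternatives tried were a 50 kb window, a −log10 q of at least 5, gaps of 100 bp merged, summits in the window, a cover of at least 50%, lists of one length, strength by fold, leaving out each library, and the replicate block. The 50 kb window gave 34 regions called in all libraries, 7 called in more dexamethasone and 6 in more ethanol libraries, 0 called in ethanol alone, and 1 ranked higher. It turned the difference in peaks to 1.33 over the 8 genes, 0.33 at NR3C1 and 0.33 at HSD11B1. A −log10 q of at least 5 gave 3 regions called in ethanol alone. The replicate block, which asks for at least 2 of 3 pairs and allows calls in both libraries of a pair, gave 5 ethanol regions, 1 dexamethasone region, 11 ranked higher and 8 ranked lower. It moved no difference in peaks per library (−2.67 over the 8 genes, exact sign-flip p at least 0.25 by design). Without 1 library there were 0 to 1 regions in dexamethasone alone, 1 to 3 in ethanol alone, 4 to 12 ranked higher (12 without ethanol replicate 1) and 5 to 8 ranked lower, and fewer libraries make such patterns easier to meet. Without 1 library the difference in peaks ranged from −2.83 to 0 at NR3C1 (−1.33 with all), from −2.83 to −0.33 at HSD11B2 (−1.67 with all) and from −1 to 1 at FKBP4 (0 with all). The difference at HSP90AB1 ranged from −0.17 (without dexamethasone replicate 2) to 1.83, and that over the 8 genes from −6.00 (without ethanol replicate 1) to −0.50. Apart from these, the counts of regions stayed within 1.5 times the main value. A like count can hold other regions. Strength by fold also gave 3 ranked higher and 4 ranked lower. Yet all 3 higher regions of the main ranking overlapped by fold, as did 1 of the lower regions. Read depth, which is unknown, limits what an absent peak can show.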
